A study of Mus musculus with 4 samples.

Results

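Imprinted genes, which are expressed mainly from the copy inherited from one parent, were examined in whole-uterus RNA sequencing from pregnant mice at E18.5. The members were 40 genes of a fixed list, found by symbol among the 55421 genes counted in each library. Of these, 23 are known as paternally expressed and 16 as maternally expressed. The remaining gene, Gnas, gives transcripts of either kind. The libraries came from 2 WT mice of strain C57BL/6J and 2 Qa-2- mice of strain B6.Cg-H2b3/FlaCmwJ, a congenic strain whose donor segment carries the MHC region and which lacks the MHC class Ib molecule Qa-2. All dams had been mated as young adults to males of their own strain and had received no other treatment named in the labels. Both parental copies of a gene are therefore of the same strain within a mating, and the counts give the sum of the copies, not the expressed allele.

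Imprinted expression is in most cases set by DNA methylation that is laid down in the egg or the sperm and kept through development. Many of the genes act on growth, and most lie in clusters in which a long noncoding RNA and a control region direct several neighbours. In pregnancy they are best known from the placenta and the fetus, where paternally expressed genes often promote growth and maternally expressed genes often restrain it. Several of them, among them H19, Cdkn1c, Grb10, Meg3 and Gnas, are also expressed in adult tissues.

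The libraries held 33286390 to 41041299 read pairs assigned to genes, and levels are given as CPM (counts scaled to a fixed library size) on library sizes scaled by the trimmed mean of M values (TMM). H2-Q6 and H2-Q7, which encode Qa-2, had 1192 to 6318 counts in the WT libraries and 2 to 4 counts in the Qa-2- libraries, as their labels give it. The libraries of a group differed in the levels of cell type markers. Markers of the visceral yolk sac, a list of 16 genes, summed to 1089 and 244 CPM in WT and to 806 and 134 CPM in Qa-2-. The sum in WT replicate 1 was mostly Rbp4, with 979 CPM. Without Rbp4 and Trf, left out after their values were seen, the sums were 11.8 and 56.3 CPM in WT and 593 and 36.8 CPM in Qa-2-, so that the highest library was WT replicate 1 on the full list and Qa-2- replicate 1 on the shorter one. Afp, a serum protein of yolk sac and fetal liver, had 13253 counts there against 158 to 1268 elsewhere. WT replicate 2 stood apart by trophoblast markers, with 47.4 CPM over 30 genes against 1.09 to 8.75 CPM, and with 18 of the 30 genes above 3 counts against 3 to 9. Its Psg23 had 395 counts against 0 to 2 elsewhere, and its Tpbpa had 271 against 115 in Qa-2- replicate 1 and 4 and 5 in the others. Syncytiotrophoblast genes Synb and Gcm1 were at 0 in every library. Syna, a further gene of these cells named after its values were seen, had 0 to 5 counts, with the most in WT replicate 1. WT replicate 1 had 39221 counts of Rbp4, against 259 to 545 in the others, while Trf ranged from 2975 to 7293 counts. Adipocyte markers, 6 genes in all, were also highest there, with a sum of 8.11 CPM against 0.23 to 0.90 CPM. The 3 embryonic globins listed were at or near 0 in all libraries. All 8 endothelial markers were higher in both WT libraries, with summed levels of 1233 and 1068 CPM against 533 and 504 CPM. Of 5 mesothelial markers, 4 were higher in both WT libraries, with log2 fold changes from 1.15 for Msln to 4.43 for Nkain4, and Krt19, which epithelia also express, was higher in Qa-2-. The mesothelial sums, most of which came from Krt19, were 469 and 391 CPM in WT and 746 and 585 CPM in Qa-2-. Smooth muscle markers summed to 27608 and 46009 CPM in WT and to 24819 and 13278 CPM in Qa-2-, and uterine epithelial markers to 30832 and 19364 CPM against 27917 and 40718 CPM. All 9 smooth muscle markers had positive and all 13 epithelial markers negative log2 fold changes, with medians of 0.91 and -0.82, and 6 of the 13 were higher in both Qa-2- libraries. Decidual stroma markers summed to 978 and 886 CPM in WT and to 793 and 625 CPM in Qa-2-. Of the 9 tested, 7 had positive and 2 negative log2 fold changes. Leukocyte markers summed to 301 and 413 CPM against 330 and 243 CPM, and skeletal muscle markers to 142 and 284 CPM against 140 and 117 CPM. In whole tissue, fewer cells of a type and less RNA per cell cannot be told apart. The part of these cell types in the results below was not tested.

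The first question was whether imprinted genes differed between WT and Qa-2- uteri. Of the 40 members, 29 reached at least 1 CPM in at least 2 libraries and were tested among 14492 genes with edgeR. None passed an adjusted p of 0.05, and neither did any other gene, so the share called was 0% of all genes tested. The smallest adjusted p of a member was 0.246. At an unadjusted p under 0.05, 3 members were higher in WT, where 8.09% of all genes tested were, and 2 were higher in Qa-2-, where 7.09% of all genes were, so these counts were near the background. The 3 were Slc38a4, Nnat and Mest, all paternally expressed, and the 2 were Slc22a3 and Ppp1r9a, both maternally expressed. Nnat and Slc22a3 passed the filter only through the group in which they were higher, so their p-values carry that selection. DESeq2, run as an alternative, called Slc38a4 higher in WT and Slc22a3 higher in Qa-2- among 29 members, beside 2.79% and 2.04% of all genes in these directions. With 2 libraries per group, an exact two-sided permutation test of a single gene cannot give a p below 0.33. The labels give 2 uteri per group and no further tie between libraries, so the p-values measure the spread between these uteri.

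The annotated transcription starts of these 5 genes are given here because they mark the members with the smallest p-values, with CG pairs marked as the places where DNA can be methylated. Not every imprinted gene has a methylated control region at its own start. Each RefSeq window (GRCm38.p6) runs from 250 bases before to 50 bases after a start and is written 5′ to 3′ on the gene's own strand, with every CG pair in capitals. Where a gene had several windows, the one with the most CG pairs is given, and on ties the most upstream.
Slc38a4, chr15:97055907-97056206, minus strand: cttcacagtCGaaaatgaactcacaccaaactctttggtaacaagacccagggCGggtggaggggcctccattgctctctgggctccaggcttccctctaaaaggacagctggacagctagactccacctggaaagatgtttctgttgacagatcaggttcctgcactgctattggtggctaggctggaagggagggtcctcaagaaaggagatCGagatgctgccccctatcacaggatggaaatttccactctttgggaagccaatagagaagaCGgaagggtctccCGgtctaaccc
Mest, chr6:30737800-30738099, plus strand: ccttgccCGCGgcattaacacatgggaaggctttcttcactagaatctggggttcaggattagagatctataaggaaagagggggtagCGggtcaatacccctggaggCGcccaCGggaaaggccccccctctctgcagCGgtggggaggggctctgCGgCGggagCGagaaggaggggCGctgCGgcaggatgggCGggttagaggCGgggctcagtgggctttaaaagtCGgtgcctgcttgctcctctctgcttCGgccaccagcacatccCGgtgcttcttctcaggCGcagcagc
Nnat, chr2:157559828-157560127, plus strand: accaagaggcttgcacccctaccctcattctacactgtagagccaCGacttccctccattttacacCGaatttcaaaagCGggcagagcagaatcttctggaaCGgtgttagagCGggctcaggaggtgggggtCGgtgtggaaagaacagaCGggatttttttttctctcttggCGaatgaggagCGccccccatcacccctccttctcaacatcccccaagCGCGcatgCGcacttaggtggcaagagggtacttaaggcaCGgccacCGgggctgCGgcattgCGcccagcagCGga
Slc22a3, chr17:12507655-12507954, minus strand: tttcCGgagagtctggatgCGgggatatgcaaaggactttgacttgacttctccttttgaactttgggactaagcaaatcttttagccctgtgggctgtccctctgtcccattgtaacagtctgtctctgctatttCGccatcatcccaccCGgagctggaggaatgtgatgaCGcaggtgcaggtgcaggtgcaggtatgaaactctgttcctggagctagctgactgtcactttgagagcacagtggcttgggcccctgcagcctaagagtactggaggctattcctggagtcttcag
Ppp1r9a, chr6:4903061-4903360, plus strand: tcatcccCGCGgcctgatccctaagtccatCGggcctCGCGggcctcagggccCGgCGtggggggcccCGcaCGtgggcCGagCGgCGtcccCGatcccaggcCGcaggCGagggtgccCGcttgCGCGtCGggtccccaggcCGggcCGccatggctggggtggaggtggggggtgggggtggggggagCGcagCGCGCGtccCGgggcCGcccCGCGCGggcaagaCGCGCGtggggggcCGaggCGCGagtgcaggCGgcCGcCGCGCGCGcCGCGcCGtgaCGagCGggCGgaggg
The windows held 5 CG pairs for Slc38a4 and for Slc22a3, 17 for Mest and for Nnat, and 48 for Ppp1r9a. Of the 27025 genes with a window in the table, chosen by the same rule, 63.5% held at least 5, 33.9% at least 17 and 1.4% at least 48. The members with the smallest p-values therefore spanned CG-poor and CG-rich starts in both directions of change. Windows were found for 34 members, with a median of 13 CG pairs against 8 over all genes. The median was 12 for 19 paternally expressed members and 16.5 for 14 maternally expressed members. H19, Peg10, Cdkn1c, Sgce, Impact and Rtl1 were not matched. Methylation was not measured here.

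Slc38a4 (chr15:96994820-97055956), which encodes a sodium-coupled transporter of neutral amino acids and is best known from liver and placenta, had 834 and 639 counts in the WT libraries and 314 and 210 in the Qa-2- libraries. In CPM these were 20.8 and 16.98 against 8.87 and 6.02, so both WT libraries were higher than both Qa-2- libraries. The log2 fold change, with positive values higher in WT, was 1.34 with a standard error (SE) of 0.27 (unadjusted p = 0.00391, adjusted p = 0.246, edgeR). It lay between 1.09 and 1.65 when each library was left out in turn, and DESeq2 gave an adjusted p of 0.00374. Slc38a4, Mest and Nnat were higher in the libraries in which all 8 endothelial and 4 of 5 mesothelial markers were higher, and in which the 9 smooth muscle markers had positive log2 fold changes. Decidual stroma sums were also higher in both WT libraries, with 7 positive and 2 negative log2 fold changes. Adipocyte markers were highest in WT replicate 1. The part of these cells in the differences was not tested.

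Mest (chr6:30723547-30748465), a member of the alpha/beta hydrolase family that is active in growing mesoderm and in fat tissue, had 15.8 and 16.7 CPM in WT and 9.94 and 5.41 CPM in Qa-2-. The groups did not overlap, and the WT libraries were close to each other while the Qa-2- libraries were not. Its log2 fold change was 1.08 with an SE of 0.33 (adjusted p = 0.283, edgeR), and it ranged from 0.71 without Qa-2- replicate 2 to 1.59 without Qa-2- replicate 1. Of the exon bases of Mest, 23.1% lie opposite exons of Copg2, which the strand-specific counting keeps apart. Nnat (chr2:157560078-157562522), a small membrane protein best known from brain and from insulin-secreting cells, was low throughout, with 50 and 63 counts in WT and 15 and 18 in Qa-2-. These counts correspond to 1.25 and 1.67 CPM against 0.42 and 0.52 CPM, and the groups did not overlap. Nnat passed the filter only through the WT libraries, in which it was higher. The log2 fold change of Nnat was 1.63 with an SE of 0.44 (adjusted p = 0.271, edgeR), and it lay between 1.40 and 1.80 when each library was left out in turn.

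Slc22a3 (chr17:12418960-12507704), an organic cation transporter that clears monoamines from the extracellular space, had the largest log2 fold change in size among the 29 members tested, in the main fit. Without WT replicate 1 that of Nnat was larger (1.80), and without WT replicate 2 that of Meg3 was (-2.63). Slc22a3 passed the filter only through the Qa-2- libraries, in which it was higher. It had 15 and 28 counts in WT and 82 and 70 in Qa-2-, or 0.37 and 0.74 CPM against 2.32 and 2.01 CPM. Each Qa-2- library was thus above each WT library, and the libraries within a group were nearer to each other than the groups were. The log2 fold change was -1.95 with an SE of 0.49 (unadjusted p = 0.00952, adjusted p = 0.256, edgeR), and it stayed between -2.52 and -1.56 when single libraries were left out. DESeq2 gave an adjusted p of 0.0436. The gene lies on the same chromosome as the MHC, 22.9 Mb from H2-Q7, and whether the donor segment of the congenic strain reaches it was not tested. Ppp1r9a (chr6:4902917-5165661), the actin-binding scaffold neurabin-I, had 7.41 and 10.2 CPM in WT and 14.2 and 17.3 CPM in Qa-2-. Here too both Qa-2- libraries were higher, with a log2 fold change of -0.84 and an SE of 0.25 (adjusted p = 0.281, edgeR) that lay between -1.09 and -0.65 when single libraries were left out.

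**Figure D1:**
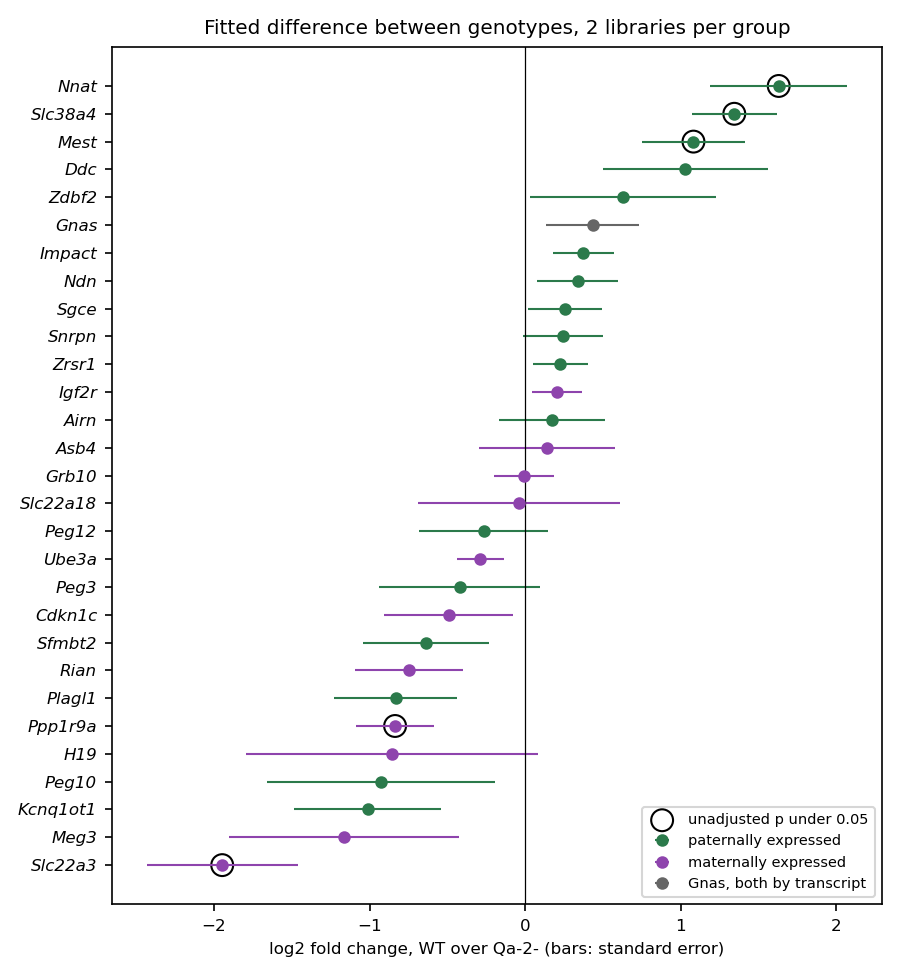
Fitted WT to Qa-2- difference as a log2 fold change (horizontal axis) for the 29 imprinted genes tested, 1 gene per row, with bars for the SE of the fit and colours for the expressed parental copy. Nnat, Slc38a4 and Mest lie farthest to the right and Slc22a3 farthest to the left. Circled genes had an unadjusted p under 0.05, and no gene passed the adjusted threshold.

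Paternally and maternally expressed members were next described apart. Among 17 paternally expressed genes tested, 11 had a positive and 6 a negative log2 fold change, with a median of 0.24 and a range from -1.01 for Kcnq1ot1 to 1.63 for Nnat. Among 11 genes listed as maternally expressed, which include Ube3a although it is imprinted in neurons, 2 were positive and 9 negative, with a median of -0.49 and a range from -1.95 for Slc22a3 to 0.21 for Igf2r. The median of all members was -0.01 and that of all 14492 genes was 0.01. Which copy is expressed was taken from the list for all members and was not measured in these uteri. The difference between the medians was not tested, and the medians depended on single libraries. The paternal median was -0.05 without WT replicate 2 and 0.49 without Qa-2- replicate 1, and the maternal median was -1.09 and -0.22, so that the maternal median stayed below the paternal one in both cases. Without both of these libraries, as log2 ratios of CPM with 0.5 added and from 1 library per group, the medians were 0.22 and -0.19.

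The libraries of the groups did not overlap for 8 members higher in WT, beside 25.4% of all genes, and for 7 members higher in Qa-2-, beside 24.5% of all genes. These shares of 29 members are close to the background. The 8 were Slc38a4, Nnat, Mest, Igf2r, Gnas, Impact, Zrsr1 and Ddc, and the 7 were Slc22a3, Ppp1r9a, Rian, Plagl1, Kcnq1ot1, Sfmbt2 and Ube3a. Igf2r, the receptor that carries IGF2 to the lysosome, was the only maternally expressed member in the first set.

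The second question was how far imprinted genes varied between the 2 uteri of a group. H19, a maternally expressed noncoding RNA, had the widest spread. It had 1108 and 1721 counts in WT and 4222 and 479 in Qa-2-, or 27.7, 45.7, 119 and 13.7 CPM. Qa-2- replicate 1 was thus the highest and Qa-2- replicate 2 the lowest of the 4 libraries, 8.42-fold apart on CPM with 0.5 added. The genotype comparison for H19 rested on that library, with a log2 fold change of -0.86 and an SE of 0.94 (adjusted p = 0.688, edgeR) that became 1.42 without it (adjusted p = 0.345).

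The transcript of H19 holds the hairpin of miR-675 in an exon, and an intron of Mest holds that of miR-335. These microRNAs are shown because they are the products through which either transcript can act on other messages, with the seed (bases 2 to 8) in capitals.
miR-675-5p, chr7:142577112-142577133, minus strand: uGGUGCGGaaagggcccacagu
miR-675-3p, chr7:142577078-142577099, minus strand: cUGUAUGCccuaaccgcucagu
miR-335-5p, chr6:30741314-30741336, plus strand: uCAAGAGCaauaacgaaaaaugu
miR-335-3p, chr6:30741354-30741375, plus strand: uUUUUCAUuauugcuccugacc
No seed is shared among the 4. The hairpin rows of both had 0 counts in all libraries, and polyadenylated-RNA libraries do not measure mature microRNAs. Pairs over the miR-675 hairpin also touch its H19 exon and were counted for neither. The H19 and Mest values therefore describe the host transcripts. In the RefSeq table, hairpins also lie on the same strand within Mirg with 14, within Rian with 3, and within Meg3, Igf2, Usp29 and Rtl1 with 1 each.

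Of the 29 members, 3 were at least 2-fold higher in Qa-2- replicate 1 than in Qa-2- replicate 2, against 1.86% of all genes, and 0 were in the reverse direction, against 1.93%. The 3 were H19, Peg10 and Peg3. Peg10, a gene derived from a retrotransposon and required for placental development, had 17.9 and 29.2 CPM in WT and 74.1 and 15.3 CPM in Qa-2-. The first Qa-2- library was the highest here as well, and the second was again the lowest. Peg3, a zinc-finger protein linked to maternal behaviour and fetal growth, had 9.71 and 9.38 CPM in WT and 19.2 and 6.39 CPM in Qa-2-. The WT libraries were nearly alike for Peg3, and the difference lay within the Qa-2- pair. Dlk1, a Notch-like ligand abundant in the fetus, was too low to be tested, with 1, 11, 40 and 0 counts in the same order of libraries. Mirg had 18, 20, 62 and 12 counts. All 5 of these genes were highest in Qa-2- replicate 1. For H19, Peg10 and Peg3 this follows in part from how they were picked, and Dlk1 and Mirg were singled out after their values were seen. The same library had the most Afp. It also had the highest yolk sac sum once Rbp4 and Trf are left out, though not over the full list. Without Qa-2- replicate 1 the log2 fold changes of Peg10 and Peg3 turned from -0.93 and -0.42 to 0.62 and 0.58. The part of yolk sac tissue in these levels was not tested.

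In WT, 4 members were at least 2-fold higher in replicate 2 than in replicate 1, against 2.62% of all genes, and 1 was lower by as much, against 3.63%. The 4 were Meg3, Zdbf2, Cdkn1c and Plagl1. Meg3, a maternally expressed noncoding RNA of the Dlk1 cluster, had 6.94 and 31.5 CPM in WT and 57.5 and 28.5 CPM in Qa-2-. Rian, its neighbour that hosts small nucleolar RNAs, had 14.2 and 25.9 CPM against 39.8 and 27.5 CPM. Plagl1, a zinc-finger transcription factor that arrests the cell cycle, had 17.7 and 37.1 CPM against 57.4 and 40.02 CPM. Cdkn1c, the cyclin-dependent kinase inhibitor p57, had 17.9 and 39.7 CPM against 47.4 and 33.6 CPM. All 4 genes, which were singled out after their values were seen, were lowest in WT replicate 1 and highest in Qa-2- replicate 1, with the remaining libraries between them. Afp had the same lowest and highest library, with 3.94 and 33.7 CPM in WT and 374 and 19.7 CPM in Qa-2-, and its part was not tested. The log2 fold changes were -1.16 for Meg3, -0.75 for Rian, -0.83 for Plagl1 and -0.49 for Cdkn1c, with adjusted p-values of 0.487, 0.377, 0.385 and 0.597 (edgeR). Without WT replicate 1 they were -0.48, -0.41, -0.42 and -0.05, and without Qa-2- replicate 1 they were -0.57, -0.46, -0.55 and -0.22. Without WT replicate 2 they were -2.63, -1.24, -1.47 and -1.18, so that the size rested on single libraries.

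Zdbf2, a zinc-finger gene, had 3.48 CPM in WT replicate 2 and 1.15 to 1.55 CPM elsewhere, so that it stood out in the library with the trophoblast markers. Slc22a18, a transporter of the Kcnq1ot1 cluster, was the member lower in that library, with 4.32 and 1.41 CPM in WT and 1.98 and 3.93 CPM in Qa-2-. Its highest values were in the libraries with the least trophoblast and the most uterine epithelial marker signal, and the part of either was not tested. Over the 29 members the highest level was in WT replicate 1 for 7, in WT replicate 2 for 8, in Qa-2- replicate 1 for 12 and in Qa-2- replicate 2 for 2. Over all 14492 genes these numbers were 3483, 3982, 2892 and 4135.

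**Figure D2:**
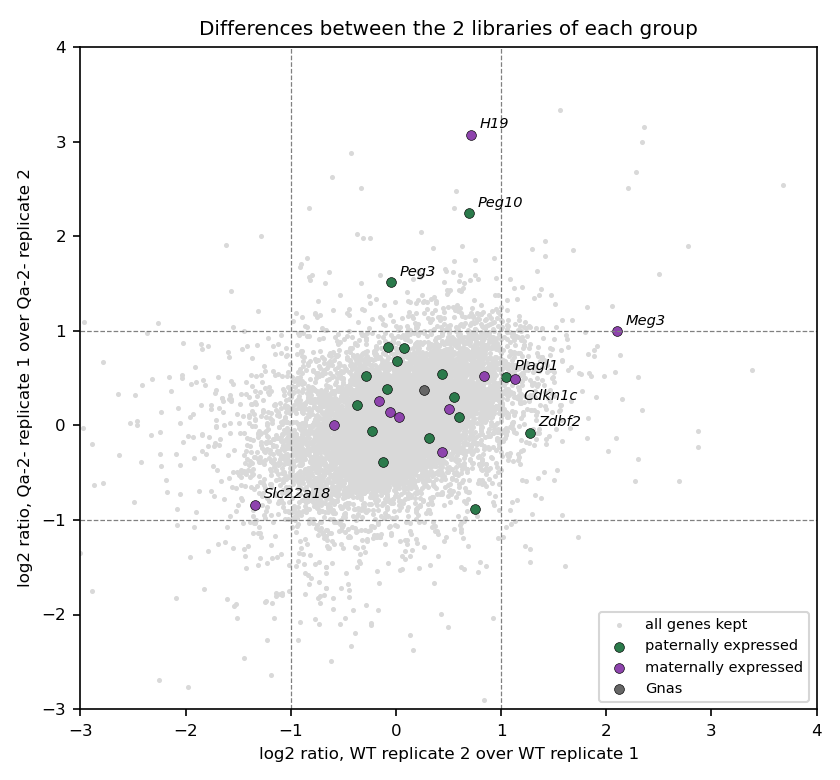
Log2 ratios between the libraries of a group, on CPM with 0.5 added, for WT (horizontal axis) and Qa-2- (vertical axis), with 1 point per gene and dashed lines at 2-fold. H19, Peg10 and Peg3 lie above the upper line, and Meg3, Zdbf2, Cdkn1c and Plagl1 lie to the right of the right-hand line. All genes tested are in grey, and 42 of them lie outside the range drawn.

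**Figure D3:**
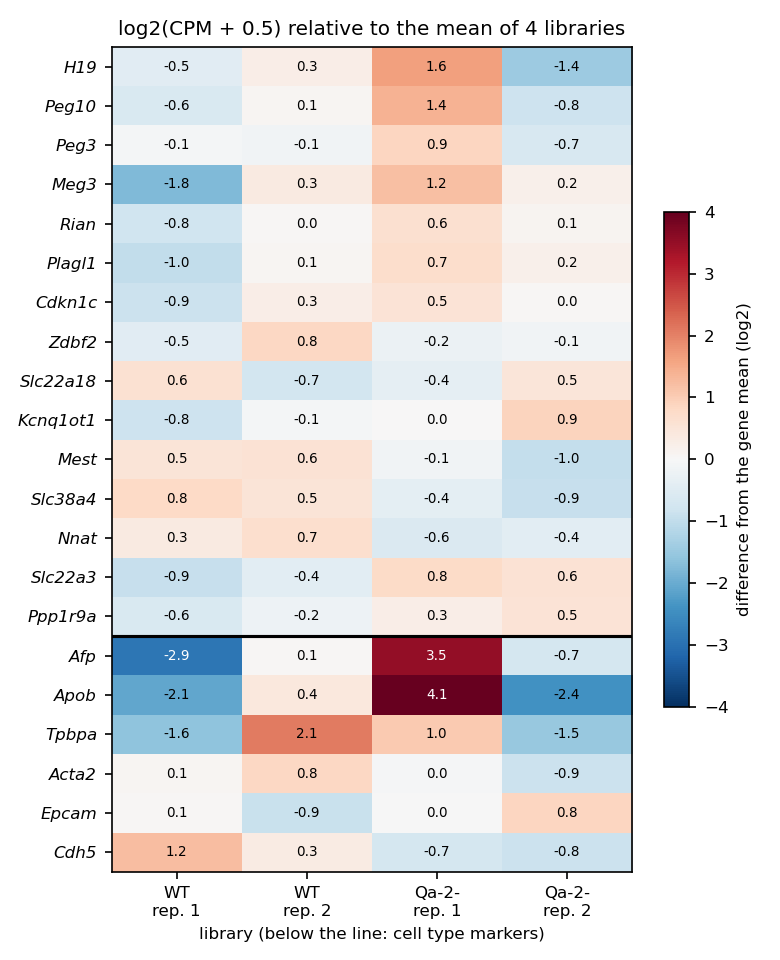
Heat map of log2(CPM + 0.5) relative to the gene's own mean over the 4 libraries, for 15 imprinted genes above the line and 6 cell type markers below it. H19 and Peg10 are highest in Qa-2- replicate 1, as are the yolk sac genes Afp and Apob. Mest, Slc38a4 and Nnat are higher in both WT libraries, as is the endothelial gene Cdh5.

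The clusters were then examined one by one. Among the 40 members, the 2 tested of the Dlk1 cluster and the 3 tested of the Kcnq1ot1 cluster had negative log2 fold changes, and those of the Igf2r, Peg10, Grb10 and Snrpn clusters had both signs. In the Igf2r cluster on chromosome 17, Airn, the paternally expressed noncoding RNA that silences its neighbours, had 3.47 and 5.50 CPM in WT and 4.12 and 3.84 CPM in Qa-2-. The groups overlapped, and the log2 fold change was 0.17 with an SE of 0.34. Igf2r had 145 and 148 CPM against 131 and 123 CPM, a log2 fold change of 0.21 with an SE of 0.16 (adjusted p = 0.569, edgeR). Slc22a3, whose paternal copy Airn silences in the placenta, was the member of this cluster that was higher in Qa-2-. Slc22a2 had 0 counts in 3 libraries and 2 in Qa-2- replicate 1.

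In the Kcnq1ot1 cluster on chromosome 7, the noncoding RNA Kcnq1ot1 had 2.50 and 4.54 CPM in WT and 4.83 and 9.37 CPM in Qa-2-. It was lowest in WT replicate 1 and highest in Qa-2- replicate 2, with a log2 fold change of -1.01 and an SE of 0.47 (adjusted p = 0.381, edgeR) that ranged from -1.51 to -0.46 over single libraries left out. Of the genes it silences, Cdkn1c had a log2 fold change of -0.49 and Slc22a18 had -0.04 with an SE of 0.65. Imprinted genes of the same region from the further list described at the end, picked here for their position, had values of both signs. They were -0.73 for Kcnq1, the host gene of Kcnq1ot1, 1.05 for Tspan32, 0.57 for Cd81, 0.32 for Osbpl5, 0.20 for Nap1l4, 0.16 for Dhcr7 and 0.11 for Tssc4, and none passed the adjusted threshold. Phlda2, which limits placental growth, had 6 to 28 counts, and Ascl2, a transcription factor of trophoblast precursors, had 15 to 34. Neither was tested. Ascl2 was not highest in the library with the most trophoblast marker signal.

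In the Peg10 cluster on chromosome 6, Sgce, which encodes epsilon-sarcoglycan and shares a divergent promoter region with Peg10, had 51.8 and 76.4 CPM in WT and 59.3 and 48.1 CPM in Qa-2-. It varied 1.59-fold between its lowest and highest library while Peg10 varied 4.86-fold. Asb4, a subunit of ubiquitin ligases, had 1.06 to 1.85 CPM with overlapping groups. In the Grb10 cluster on chromosome 11, Grb10, an adaptor that dampens insulin and IGF receptor signalling, was among the most even of the members at 169 to 202 CPM, with a log2 fold change of -0.01 and an SE of 0.19. Ddc, the decarboxylase that makes dopamine and serotonin, had 2.10 and 1.97 CPM in WT and 1.41 and 0.57 CPM in Qa-2-, a log2 fold change of 1.03 with an SE of 0.53 (adjusted p = 0.41, edgeR) that was 1.82 without Qa-2- replicate 1 and 0.52 without Qa-2- replicate 2.

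In the Snrpn and Ube3a region of chromosome 7, the paternally expressed Ndn, a growth suppressor of the MAGE family, had 29.1 to 52.2 CPM. Snrpn, a spliceosome component, had 6.21 to 8.99 CPM, and Peg12 had 1.72 to 3.05 CPM. The groups overlapped for these 3 genes. Ube3a, a ubiquitin ligase known to be expressed from both copies outside neurons, had 71.2 and 68.6 CPM in WT and 89.5 and 81.2 CPM in Qa-2-, a log2 fold change of -0.29 with an SE of 0.15 (adjusted p = 0.414, edgeR). Of the exon bases of Snrpn, 27.3% are shared on the same strand with Snurf and Gm38393, and pairs falling there were not counted for any of them. Mkrn3 had 22 to 42 counts and Magel2 had 0 in all libraries, which allows up to 0.0749 to 0.086 CPM by a floor of 3 counts. Among the single genes, Impact, which restrains the amino acid stress kinase GCN2, had 52.0 and 40.2 CPM in WT and 38.2 and 32.9 CPM in Qa-2-. Zrsr1, a splicing factor, had 16.5 to 21.4 CPM, and Sfmbt2, a polycomb protein needed for trophoblast, had 0.96 to 1.84 CPM. The log2 fold changes of these 3 were 0.37, 0.23 and -0.64.

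**Figure D4:**
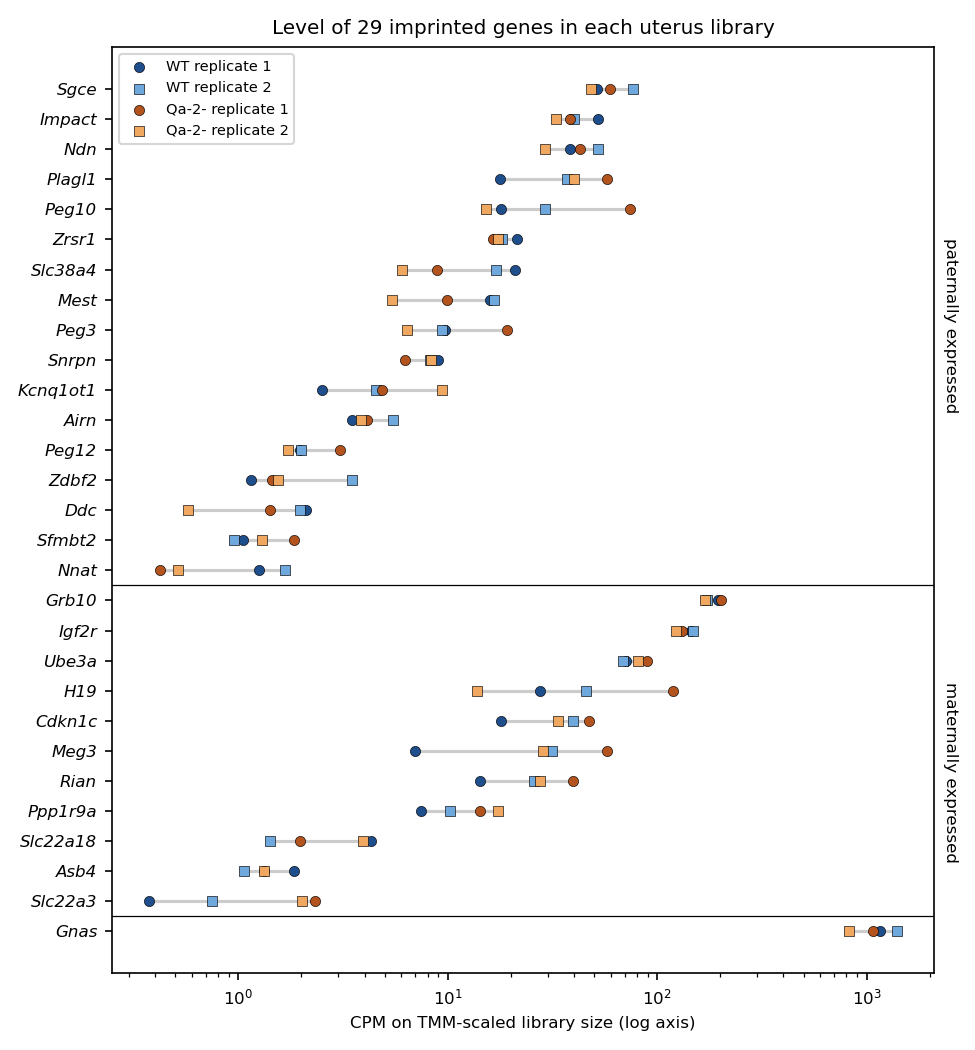
CPM on TMM-scaled library sizes (log axis) of the 29 imprinted genes tested, 1 row per gene and 1 symbol per library, with a grey line from the lowest to the highest library. Gnas is the highest, Grb10 and Igf2r are tightly grouped, and H19, Meg3 and Peg10 are widely spread.

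To compare levels between genes, the CPM values were divided by exon length, giving RPKM, the length-scaled level. Gnas, which encodes the stimulatory G protein alpha subunit, had the highest mean RPKM over 4 libraries at 97.8, with 102 and 123 in WT and 94.0 and 72.4 in Qa-2-. It lay above every other member in every library. H19 followed with 21.0, Grb10 with 20.3, Cdkn1c with 16.99 and Igf2r with 14.7. The order among these 4 genes was not fixed beyond the spread between libraries. H19 alone ranged from 5.58 to 48.5 RPKM and Cdkn1c from 8.77 to 23.2 RPKM, while Grb10 stayed between 18.6 and 22.2 RPKM and above Igf2r in each library. Ndn with a mean of 10.98, Impact with 7.96, Sgce with 5.55, Peg10 with 5.12 and Plagl1 with 4.87 RPKM came next. The gene model of Gnas joins the exons of its differently imprinted transcripts, and its count does not separate them.

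The 11 members below the filter were Igf2, Dlk1, Mirg, Phlda2, Ascl2, Magel2, Mkrn3, Zim1, Usp29, Slc22a2 and Rtl1. Igf2, the fetal growth factor, was listed with 11 and 6 counts in WT and 24 and 16 in Qa-2-. Of its exon bases, 62.8% are overlapped on the same strand by the gene model Gm49394, where pairs were assigned to neither, so the Igf2 level is only what this counting left. Zim1, a zinc-finger gene of the Peg3 cluster, had 13 to 27 counts. Rtl1, a retrotransposon-derived gene of fetal placental vessels, had 2 counts in Qa-2- replicate 1 and 0 elsewhere, and Usp29 had 0 or 1.

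Genes around the members were taken from 3 further lists. Of 36 other imprinted genes, 26 were tested and none passed the adjusted threshold. At an unadjusted p under 0.05, 5 were higher in WT and 2 in Qa-2-, beside 8.09% and 7.09% of all genes. The median log2 fold change was 0.18 (18 positive, 8 negative). The largest values were 1.93 for Gpr1, a chemerin receptor, with 3.62 and 6.91 CPM against 1.496 and 1.26 CPM, and 1.78 for Tfpi2, an inhibitor of serine proteases. Tfpi2 was set by WT replicate 1, with 84.3 CPM against 12.3 to 18.52 CPM in the other libraries. The lowest were -1.46 for Begain and -1.09 for Cobl. Begain, with 0.90 and 0.53 CPM in WT and 1.92 and 2.03 CPM in Qa-2-, passed the filter only through the Qa-2- libraries. DESeq2 called 3 of the 26 higher in WT, where it called 2.79% of all genes, and 0 higher in Qa-2-, where it called 2.04%. The 3 were Gpr1, Dcn and Dio3. Dio3, the deiodinase that inactivates thyroid hormone and lies in the Dlk1 cluster, had 144 and 198 CPM in WT and 90.7 and 56.2 CPM in Qa-2-. It was higher in both WT libraries, whereas Meg3 and Rian of the same cluster had negative log2 fold changes. Dio3 and Dcn were named after their values were seen.

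Of 16 genes of the IGF pathway, on which several imprinted genes act, 15 were tested, 0 passed the adjusted threshold, and 4 were higher in WT and 1 in Qa-2- at an unadjusted p under 0.05, beside 8.09% and 7.09% of all genes. Igfbp2, an IGF-binding protein, had 2494 and 6406 CPM in WT and 852 and 327 CPM in Qa-2-, a log2 fold change of 2.92 with an SE of 0.73 (adjusted p = 0.257, edgeR). Igfbp3, the main carrier of IGFs in blood, had 286 and 276 CPM against 95.9 and 88.7 CPM, a log2 fold change of 1.61 with an SE of 0.18 (adjusted p = 0.228, edgeR). The libraries of each group lay close together for Igfbp3. DESeq2 called 4 of the 15 higher in WT, beside 2.79% of all genes, and 0 higher in Qa-2-, beside 2.04%. The 4 were Igfbp2, Igfbp3, Igfbp6 and Stc1, the last 2 named after their values were seen. The lowest were -0.70 for Igf1, with 64.0 and 125 CPM against 146 and 162 CPM, and -0.49 for Irs1. Neither had an unadjusted p under 0.05. The gene higher in Qa-2- at that threshold was Igf1r, named after its values were seen, with a log2 fold change of -0.42. It had 54.6 and 53.7 CPM in WT and 71.3 and 73.3 CPM in Qa-2-. The endothelial markers and 4 of 5 mesothelial markers were higher in the same libraries, and the smooth muscle sums ranked the 4 libraries in the order of Igfbp2. The part of these cells in the values was not tested.

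A list of 21 genes of imprint maintenance also held Tet1, Tet2 and Tet3, which oxidise methylated cytosine rather than keep it. Their log2 fold changes were -0.20, -0.57 and -0.40. Of the 21 genes, 18 were tested, with 2 positive and 16 negative log2 fold changes and a median of -0.22. None passed the adjusted threshold, and Zfp445 was the only one with an unadjusted p under 0.05. Zfp445, a zinc-finger protein that protects imprints from demethylation, had 47.8 and 54.7 CPM in WT and 66.4 and 69.4 CPM in Qa-2-, a log2 fold change of -0.41 with an SE of 0.15 (adjusted p = 0.315, edgeR). The Qa-2- libraries were both higher for 11 of the 18 and the WT libraries for 0, against 24.5% and 25.4% of all genes. All 13 epithelial markers also had negative log2 fold changes and the endothelial and smooth muscle markers positive ones, and their part in this was not tested. The values were small, from -0.57 for Tet2, an enzyme that oxidises methylated cytosine, to 0.08 for the DNA methyltransferase Dnmt3b and 0.13 for Arid4a.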

How the data were processed

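Whole-uterus polyadenylated RNA was sequenced in 4 libraries. The deposited values are raw counts of read pairs per gene: per the file headers, the authors ran featureCounts 2.0.0 on a GRCm38 annotation with reverse-strand counting, requiring both mates mapped and a mapping quality of 3 or more, and leaving out multi-mapping pairs and pairs that touch several genes. The submitters' processing notes also name STAR 2.7.3a, Subread and GRCm38.p6. Gene identifiers were matched to GENCODE M21 symbols (55154 of 55421). From the counts, the 14492 genes reaching 1 CPM in 2 or more libraries were kept, and the genotypes were compared with edgeR 4.0.16 (TMM, quasi-likelihood test, Benjamini-Hochberg adjustment over all kept genes, threshold 0.05, R 4.3.3), with DESeq2 1.42.0 as an alternative. The edgeR fit, with and without a replicate block, and the DESeq2 fit were tested on simulated data, and the other alternatives were not. Each library was counted as 1 sample, since the files of a group were not duplicates (chi-square per gene between replicates of 141 in WT and 84.6 in Qa-2-).

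Fold changes are WT over Qa-2- on the log2 scale, and RPKM divides CPM by the exon length in the files. Within-group ratios, and ratios left with 1 library per group, used a pseudocount of 0.5 CPM, and 2-fold was counted. Named were all 40 members; of each further list every gene past the threshold and those with the 2 highest and 2 lowest log2 values; of the trophoblast and yolk sac markers the 2 highest in summed CPM, with Afp, Apob, Synb, Gcm1, Cdh5, Msln, Nkain4, Krt19, Acta2 and Epcam added after their values were seen; and H2-Q6 and H2-Q7. The members and lists were chosen with earlier results of these data known. Counting intervals and floors cover counting error only. Sequences and their coordinates come from RefSeq (GRCm38.p6). Alternatives were another normalization, filter, tool, fold, pseudocount, a replicate block and leaving out libraries.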

Additional observations from a re-analysis of the deposited data

How the results depend on the processing

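The number of members past the adjusted threshold was 0 in each direction under every edgeR alternative run, and 1 in each direction with DESeq2, the tool that made calls on more genes (404 higher in WT and 296 in Qa-2-). Over all genes, edgeR called 47 and 14 without a filter, 88 and 5 without WT replicate 2, and 4 and 0 without WT replicate 1. The median log2 fold change of all members, -0.01, was -0.25 without a filter and -0.19 with filterByExpr, which both test more low genes, lay between -0.20 and 0.21 when single libraries were left out, and was 0.16 without both WT replicate 2 and Qa-2- replicate 1, where 1 library per group leaves only log2 ratios of CPM with 0.5 added, which understate changes of low genes. The paternal median ranged from -0.054 to 0.49 and the maternal one from -1.09 to -0.22 over single libraries, and the maternal one was -0.19 without both. Members with no overlap numbered 9 to 15 (WT) and 7 to 14 (Qa-2-) of 29 with 1 library left out, where 36.4% to 38.1% and 34.7% to 39.7% of all genes did not overlap, and 18 and 11 without both, beside 49.5% and 50.5%. Within groups, 1.5-fold gave 9 and 2 members in WT (10.3% and 9.96% of all genes) and 7 and 2 in Qa-2- (8.66% and 6.2%), 4-fold gave 1 and 0 in WT (0.166% and 0.455%) and 2 and 0 in Qa-2- (0.131% and 0.29%), and a pseudocount of 2 CPM gave 2 and 0 in WT (1.19% and 2.35%).

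Signs turned for 10 members. Leaving out single libraries, H19 ranged from -1.70 to 1.42, Peg3 from -1.01 to 0.58, Peg10 from -1.66 to 0.62, Grb10 from -0.13 to 0.13, Slc22a18 from -1.09 to 0.54, Sgce from -0.054 to 0.48, Airn from -0.20 to 0.44, Asb4 from -0.34 to 0.48, Peg12 from -0.62 to 0.21 and Zdbf2 from -0.38 to 1.19. Without both libraries the log2 ratios of CPM with 0.5 added were 0.99 for H19, 0.57 for Peg3, 0.22 for Peg10, 0.20 for Grb10, 0.12 for Slc22a18, -0.13 for Airn, 0.16 for Peg12 and -0.31 for Zdbf2. Grb10 was 0.00504 without a filter and 0.000758 with filterByExpr. The cause of these changes was not tested.

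Deviations of same-numbered libraries had a correlation of -0.385, so WT replicate 2 tended to deviate with Qa-2- replicate 1. With a single difference per group, this cannot decide whether the numbers pair libraries, and the labels name no pairing. With a replicate block the medians were -0.01 for all, 0.24 for paternally and -0.29 for maternally expressed members, with 0 members called and 2 and 0 of all genes, and a crossed pairing, added after seeing the data, called 0 and 0. Genes at a few counts, such as Dlk1 and Nnat, are limited by depth, and Igf2 also by the overlap rule of the counting.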
